A study of Rattus norvegicus with 18 samples.

Results

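The neurotrophin genes described here are 6 of the 38445 genes counted in the rat dorsal hippocampus: the ligand genes Bdnf and Ntf3, the Trk receptor genes Ntrk2 and Ntrk3, the p75 receptor gene Ngfr and the sortilin gene Sort1. They were taken by gene symbol, and all 6 passed the filter on low counts. RNA was sequenced from 18 adult male Sprague-Dawley rats fed a Lieber-DeCarli liquid diet, with 6 rats in each of 3 groups. Control rats received the diet without ethanol, ethanol rats were brought up to 9% (v/v) ethanol in steps, kept on that diet for 15 or 16 days and taken at 0 h of withdrawal, and withdrawal rats were taken 24 h after the same ethanol diet had been replaced by control diet. The question was how neurotrophin transcripts differed between chronic ethanol, acute withdrawal and control diet.

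Neurotrophins are secreted growth factors that are made as longer precursors and cut by proteases. Mature BDNF binds the receptor tyrosine kinase TrkB, the product of Ntrk2, and mature NT-3 binds TrkC, the product of Ntrk3, while the uncut precursors bind the p75 receptor together with sortilin. In the hippocampus, BDNF is released by excitatory neurons in an activity-dependent way and is known for its part in synaptic plasticity, and its gene is transcribed from several start sites.

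The read counts were made per gene, so they do not separate the start sites of Bdnf. The RefSeq table for assembly GRCr8 held windows upstream of 6 Bdnf start sites, 3 of Ntf3 and 1 of Sort1, and in 250 bases before each start both strands were searched for the CRE TGACGTCA, its core TGACG, which lies inside the CRE, the STAT site TTCNNNGAA, the E-box CACGTG and the AP-1 site TGANTCA. These motifs are bound by factor families known for activity-dependent or cytokine-dependent transcription. Of the 10 windows, 3 held a match, and all 3 lay before Bdnf start sites, numbered here along the chromosome. They are printed because Bdnf was the only member gene whose difference in withdrawal vs. control passed the threshold of the main model. As described below, that call was near the threshold and was lost in many other settings and without any of several single rats. Every match is in capitals.
Bdnf start site 1, GRCr8 chr3:116619383-116619632, plus strand: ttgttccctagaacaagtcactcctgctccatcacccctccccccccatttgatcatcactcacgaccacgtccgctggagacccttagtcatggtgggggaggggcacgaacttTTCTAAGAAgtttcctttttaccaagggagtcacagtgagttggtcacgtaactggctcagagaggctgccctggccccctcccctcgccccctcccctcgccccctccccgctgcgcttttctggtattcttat
Bdnf start site 3, GRCr8 chr3:116621721-116621970, plus strand: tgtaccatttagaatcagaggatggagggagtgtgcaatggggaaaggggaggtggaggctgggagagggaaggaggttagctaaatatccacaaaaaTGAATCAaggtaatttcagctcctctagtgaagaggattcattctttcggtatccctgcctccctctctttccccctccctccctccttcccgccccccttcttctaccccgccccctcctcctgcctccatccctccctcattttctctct
Bdnf start site 4, GRCr8 chr3:116637608-116637857, plus strand: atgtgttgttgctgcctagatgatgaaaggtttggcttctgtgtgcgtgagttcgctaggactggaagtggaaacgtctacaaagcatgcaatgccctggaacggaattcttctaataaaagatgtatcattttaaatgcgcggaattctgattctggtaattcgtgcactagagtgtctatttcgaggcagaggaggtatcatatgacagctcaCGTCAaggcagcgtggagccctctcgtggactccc
Start site 1 had 1 STAT match whose first base lay 135 bases before the start, start site 3 had 1 AP-1 match 152 bases before it, and start site 4 had 1 CRE core match on the reverse strand, 35 bases before it. Among 33469 promoter windows of the same length, 7.67% held the STAT site, 6.34% the AP-1 site, 18.2% the CRE core, 1.59% the whole CRE and 5.59% the E-box. A match is a description of the letters and does not show that a factor binds there.

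Total counts on genes ran from 30873228 to 42679748 per rat, and 17853 genes above 0.5 CPM, a count set relative to its library's total scaled by the TMM method of edgeR, in at least 1 rat were tested. Withdrawal vs. control gave 965 DE genes at q < 0.1 in limma-voom with 3 surrogate variables, ethanol vs. control gave 88 and withdrawal vs. ethanol gave 486. All 6 control libraries carried indices of one set, all ethanol and 2 withdrawal libraries those of another, and 4 withdrawal libraries those of yet another, so the control group and its index set cannot be told apart. Markers of hippocampal neurons were present in every rat, with Slc17a7, the vesicular glutamate transporter of excitatory neurons, between 376 and 1213 CPM, and Prox1, a dentate granule cell factor, between 52.9 and 148 CPM. Some libraries stood apart: the summed CPM of 8 glutamatergic neuron markers ran from 4509 to 5579 in control, from 3638 to 6205 in ethanol and from 3554 to 5675 in withdrawal rats. On the score of these markers (mean log2 deviation from all rats), ethanol rat 1 at -0.79 and withdrawal rat 5 at -0.67 were lowest, and the summed CPM of 9 choroid plexus markers ran from 31.2 to 5658 in the withdrawal group against 1164 to 2426 in control.

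In withdrawal vs. control, 1 of the 6 neurotrophin genes, Bdnf, was increased and none was decreased, against 5.41% of all genes tested, 2.85% increased and 2.55% decreased, and 2 of 6, Bdnf and Ntrk2, had an unadjusted p under 0.05 against 19.7%. In ethanol vs. control, 0 of 6 were DE by limma-voom, 0 of 6 by edgeR and DESeq2 with the same surrogate variables, and 0 of 6 had an unadjusted p under 0.05, against 0.493% of all genes DE (0.336% increased, 0.157% decreased) and 12.5% with such a p. In withdrawal vs. ethanol, 0 of 6 were DE by limma-voom against 2.72% of all genes (1.23% increased, 1.49% decreased), while 2 of 6, Bdnf and Ntrk2, had an unadjusted p under 0.05 against 16.7%. In the latter comparison edgeR called 0 and DESeq2 called 1, Ntrk2. For none of the members were 2 groups free of overlap, against 1.06%, 1.32% and 1.22% of all genes in these 3 comparisons. With 6 genes, 1 call is a count and shows nothing about the set as such.

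Bdnf encodes the precursor of brain-derived neurotrophic factor (gene ID 24225, Rnor_6.0 chr3:100768637-100819216, plus strand). Control rats had 32.2 ± 4.02 CPM (SD, n = 6), with a lowest, median and highest rat at 26.5, 34.4 and 35.4 CPM, and ethanol rats had 29.6 ± 12.8 CPM, with 16.7, 26.5 and 53.9 CPM. In withdrawal it was 52.1 ± 24.6 CPM, with 29.7, 45.1 and 99.7 CPM. Withdrawal rats 1, 2, 3, 4 and 6 lay above every control rat and withdrawal rat 5 lay within the controls, whereas only withdrawal rat 1 lay above every ethanol rat, since ethanol rat 5 was high. Among all genes tested, 3.17% had at least 5 of 6 withdrawal rats above every control rat and 2.41% had them below.

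Bdnf was 1.59-fold higher in withdrawal than in control (95% interval 1.19 to 2.13; log2 fold change 0.67 ± 0.20 SE, limma-voom q = 0.0868). The two-sided exact permutation test without surrogate variables gave a difference of 0.60 in mean log2 CPM, with p = 0.0195 and 0.214 after adjustment over the 18 tests of members, and the smallest p that 6 against 6 rats allow is 0.00216. In ethanol vs. control the log2 fold change of Bdnf was 0.01 ± 0.22 (q = 0.990), with a 95% interval from -0.46 to 0.49, and it turned to -0.20 without surrogate variables (q = 0.818), the direction of the group means. All 6 withdrawal rats lay above the ethanol mean, withdrawal rat 5 only just (29.70 against 29.62 CPM). In withdrawal vs. ethanol the log2 fold change was 0.66 ± 0.23 (q = 0.153). The latter depended on single rats, at 0.91 without ethanol rat 5 (q = 0.0285), 0.39 without ethanol rat 2 (q = 0.507) and 0.46 without withdrawal rat 1 (q = 0.137). The withdrawal vs. control call was near the threshold: without surrogate variables the log2 fold change was 0.59 with q = 0.359, with 5 surrogate variables it was 0.32 with q = 0.368, and with withdrawal rats 1 and 5 both left out it was 0.39 with q = 0.257. Leaving out 1 rat kept q below 0.1 for 8 of 18 rats, with q from 0.048 to 0.197, and the call was lost without any one of the 6 control rats, without ethanol rat 6, and without withdrawal rats 1 (log2 fold change 0.44, q = 0.136), 3 (q = 0.102) or 6 (q = 0.197). In bulk tissue, more RNA per cell and more cells of a type that carry the transcript cannot be told apart.

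**Figure D1:**
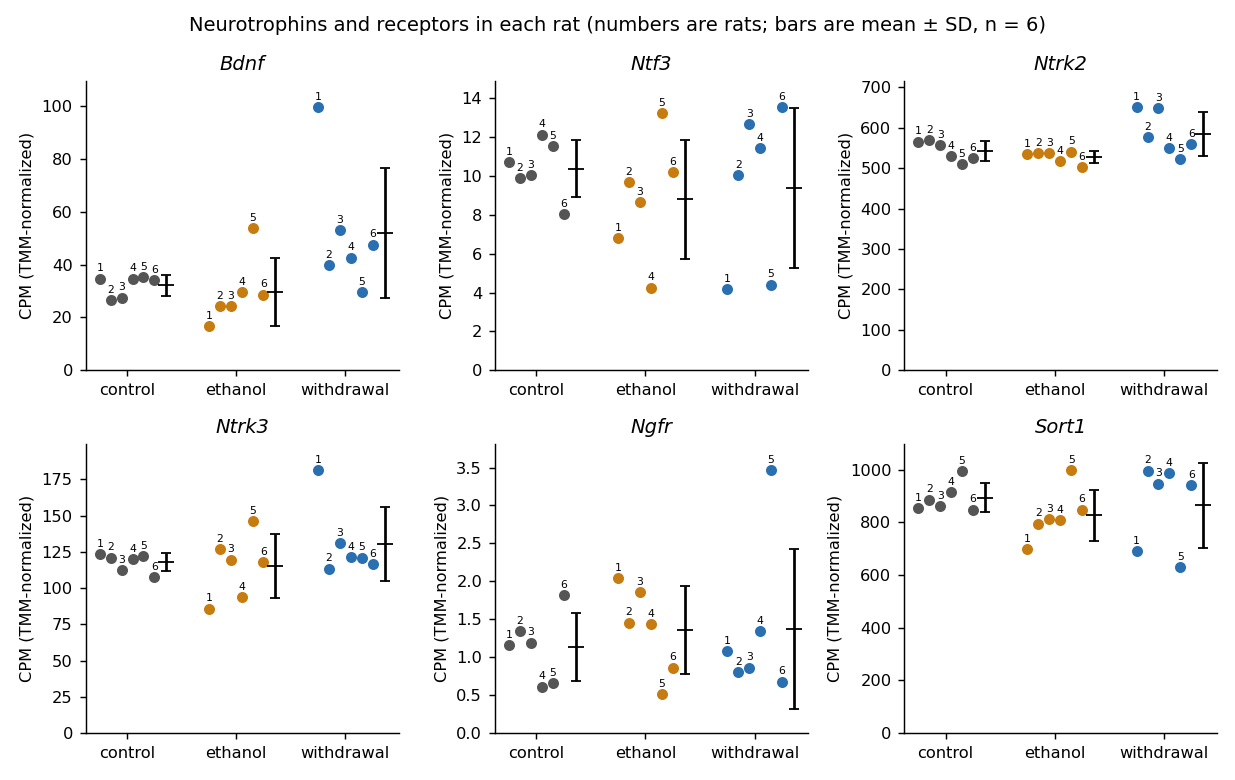
TMM-normalized level in CPM (y axis, one panel per gene) of the 6 neurotrophin genes in each of the 18 rats by group, with points for rats and bars for the mean and SD. Bdnf of withdrawal rat 1 stands at 99.7 CPM and that of ethanol rat 5 at 53.9 CPM, while the 6 control rats lie between 26.5 and 35.4 CPM.

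**Figure D2:**
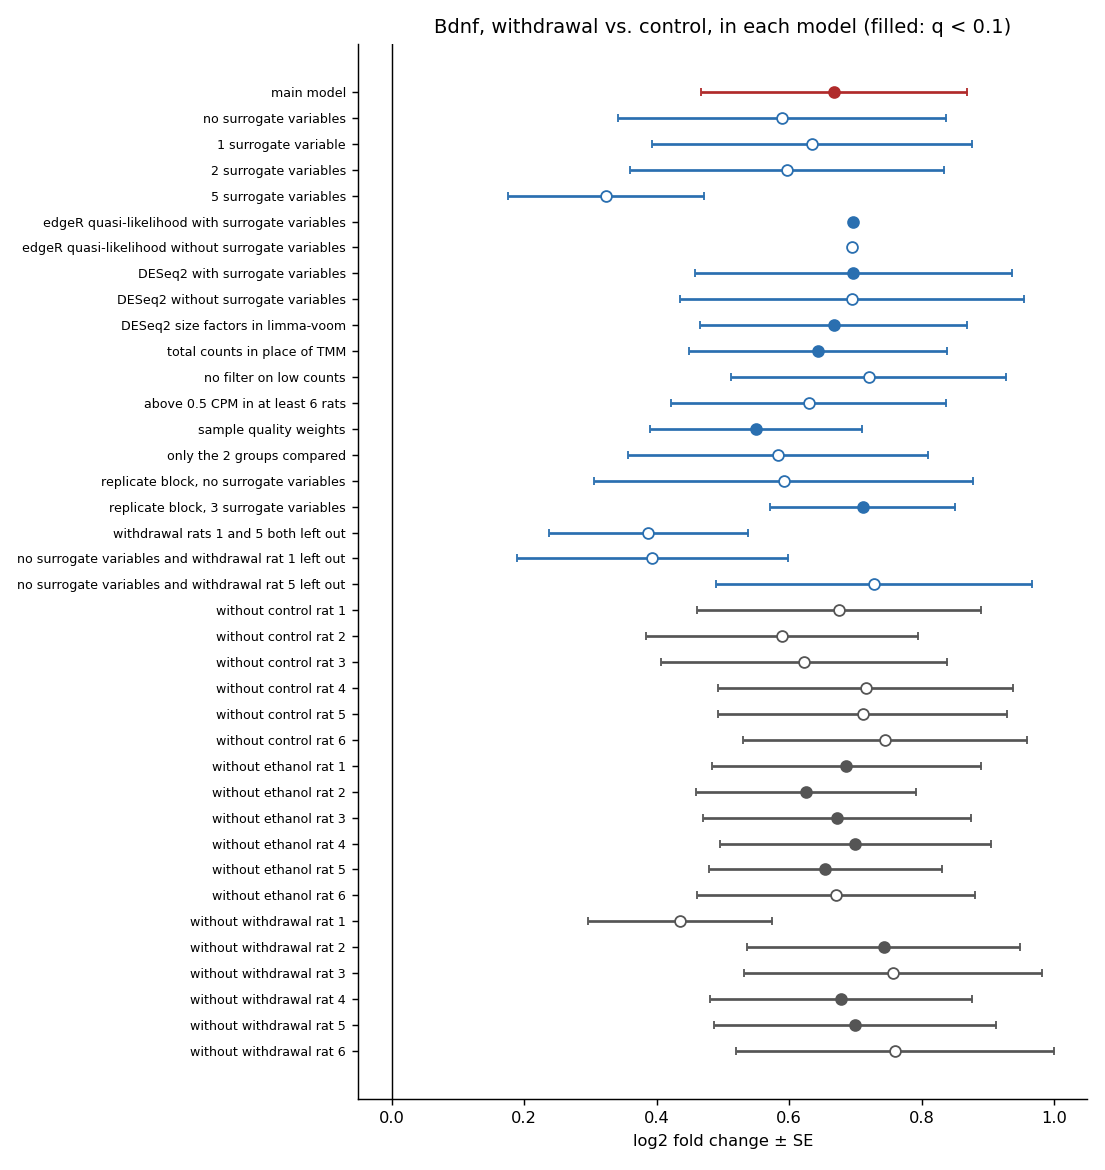
Log2 fold change of Bdnf (x axis) in withdrawal vs. control under the main model and its alternatives (y axis), with bars for the SE where the tool gives one (the edgeR points have none) and filled points for q < 0.1. Every estimate is above 0, from 0.32 with 5 surrogate variables upwards, and filled and open points are both present.

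Ntf3 encodes the precursor of neurotrophin-3 (gene ID 81737, chr4:158636883-158705886, minus strand). Its level was 10.4 ± 1.44 CPM in control (lowest 8.03, median 10.4, highest 12.1), 8.80 ± 3.07 CPM in ethanol (4.25, 9.16 and 13.2) and 9.37 ± 4.11 CPM in withdrawal (4.17, 10.7 and 13.5). The groups overlapped, and withdrawal rats 1 and 5 and ethanol rats 1 and 4 lay below every control rat. The log2 fold change was -0.09 ± 0.16 in withdrawal vs. control (q = 0.796), with a 95% interval from -0.44 to 0.25, and -0.16 ± 0.18 in ethanol vs. control (q = 0.757). In withdrawal rat 1 the ligands stood at opposite ends, with the highest Bdnf and the lowest Ntf3 of all 18 rats. The log2 ratio of Bdnf to Ntf3 was 2.51 ± 1.06 in withdrawal and 1.63 ± 0.24 in control, a difference of 0.88 (two-sided exact permutation p = 0.0130, 0.156 adjusted over 12 ratio tests), so it did not pass after adjustment. Without withdrawal rat 1 the difference was 0.47 (exact permutation p = 0.0216, 0.260 adjusted).

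Ntrk2 encodes TrkB, the receptor of BDNF (gene ID 25054, chr17:5934651-6245778, minus strand), which is made both as a full-length kinase in neurons and as a truncated form abundant in astrocytes, and the gene-level counts add these forms. Its level was 543 ± 24.4 CPM in control (511, 543 and 569), 528 ± 15.2 CPM in ethanol (502, 536 and 541) and 585 ± 53.6 CPM in withdrawal (522, 568 and 651). Withdrawal rats 1 and 3 were highest, 3 of 6 withdrawal rats lay above every control rat, and 5 of 6 lay above every ethanol rat, a placing that 2.31% of all genes tested had, against 2.48% with the reverse. The log2 fold change was 0.12 ± 0.04 in withdrawal vs. control (95% interval 0.03 to 0.20, limma-voom q = 0.120) and 0.13 ± 0.04 in withdrawal vs. ethanol (0.04 to 0.22, q = 0.154), so neither passed. In ethanol vs. control it was -0.01 ± 0.04 (q = 0.938). Both withdrawal comparisons passed with DESeq2 and the same surrogate variables (q = 0.0735 and 0.0905), and withdrawal vs. control also passed with sample quality weights in limma (q = 0.0865). Leaving out ethanol rat 1 (q = 0.0677 and 0.0762) or withdrawal rat 5 (q = 0.0725 and 0.0965) also brought both below 0.1 in limma-voom. Other settings moved them further from the threshold, with q = 0.290 in withdrawal vs. control without withdrawal rat 1, q = 0.442 in withdrawal vs. ethanol without ethanol rat 2, and q = 0.451 and 0.171 without surrogate variables.

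Ntrk3 encodes TrkC, the receptor of NT-3 (gene ID 29613, chr1:139890537-140262503, minus strand). Its level was 118 ± 6.33 CPM in control (108, 121 and 124), 115 ± 22.1 CPM in ethanol (85.8, 119 and 146) and 131 ± 25.6 CPM in withdrawal (113, 121 and 182). The group medians ran only from 119 to 121 CPM, and withdrawal rat 1 at 182 CPM stood alone at the top of its group. The log2 fold change was 0.12 ± 0.07 in withdrawal vs. control (95% interval -0.03 to 0.27, q = 0.356) and 0.12 ± 0.07 in ethanol vs. control (-0.04 to 0.27, q = 0.549). Without surrogate variables the latter turned to -0.05, the direction of the group means. In withdrawal vs. ethanol it was 0.00 ± 0.08 (q = 0.987), or 0.19 without surrogate variables (q = 0.406), and the log2 ratio of Ntrk2 to Ntrk3 was 2.20 ± 0.09 in control, 2.22 ± 0.28 in ethanol and 2.17 ± 0.18 in withdrawal.

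Ngfr encodes the p75 neurotrophin receptor (gene ID 24596, chr10:83389828-83408061, minus strand), which in the adult forebrain is carried mainly by basal forebrain cholinergic neurons and their fibres. It rested on only 18 to 129 counts per rat, which limits its precision. Its level was 1.13 ± 0.45 CPM in control (0.61, 1.18 and 1.82), 1.36 ± 0.58 CPM in ethanol (0.51, 1.44 and 2.04) and 1.37 ± 1.05 CPM in withdrawal (0.678, 0.967 and 3.47). The groups overlapped, with withdrawal rat 5 at 3.47 CPM above all other rats. The log2 fold change was -0.20 ± 0.18 in withdrawal vs. control (95% interval -0.58 to 0.18, q = 0.562), a direction that turned to 0.09 without surrogate variables. It was 0.10 ± 0.19 in ethanol vs. control (q = 0.869).

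Sort1 encodes sortilin, a Vps10p-domain receptor that sorts BDNF precursors and pairs with p75 (gene ID 83576, chr2:211078092-211156312, plus strand). Its level was 893 ± 55.4 CPM in control (849, 874 and 995), 827 ± 97.8 CPM in ethanol (700, 810 and 999) and 865 ± 162 CPM in withdrawal (628, 944 and 996). Of the ethanol rats, 5 of 6 lay below every control rat and the remaining one, ethanol rat 5, lay above them all, a placing below the controls that 2.85% of all genes tested had, against 3.39% with the reverse. Ethanol rat 6 was only just below, at 848.3 CPM against 848.5 CPM in control rat 6, the lowest control. Withdrawal rats 1 and 5 were low, at 690 and 628 CPM, and the other 4 withdrawal rats lay between 941 and 996 CPM. The log2 fold change was -0.07 ± 0.05 in ethanol vs. control (95% interval -0.17 to 0.03, q = 0.556) and -0.02 ± 0.04 in withdrawal vs. control (-0.11 to 0.07, q = 0.840). Leaving out each rat in turn kept q for ethanol vs. control between 0.514 and 0.858.

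**Figure D3:**
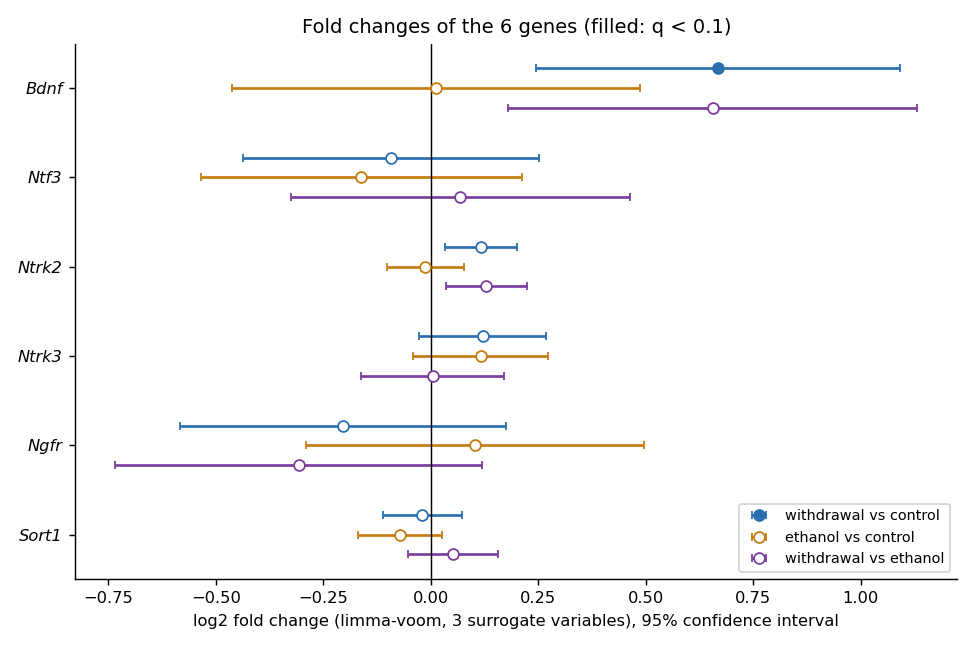
Log2 fold change (x axis) of each neurotrophin gene (y axis) in the 3 comparisons from limma-voom with 3 surrogate variables, with bars for the 95% interval and filled points for q < 0.1. Bdnf at 0.67 in withdrawal vs. control is the only filled point, and the intervals of Ntf3, Ntrk3, Ngfr and Sort1 include 0 in every comparison.

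Set against exon length, the control levels ranked Sort1 at 127 CPM per kb, Ntrk2 at 34.3, Ntrk3 at 23.4, Ntf3 at 5.85, Bdnf at 5.04 and Ngfr at 0.318. Neighbours in this order were apart in every control rat except Ntf3 and Bdnf, whose control rats overlapped. In CPM without length, Sort1 lay at the 99.5 percentile of genes tested by mean level, Bdnf at the 66.4 and Ngfr at the 17.6.

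Over the 18 rats, some member genes varied together, and some in opposite directions (Pearson's r and Spearman's rho of log2 CPM, 100000 permutations each, adjusted over 15 pairs). Ntf3 and Sort1 rose and fell together across rats, with r = 0.83 (adjusted p = 0.00105) and rho = 0.82 (0.00105), r = 0.90 without the 2 rats farthest from the median of Ntf3, and r between 0.60 and 0.94 within each group. Ngfr ran opposite to Sort1, with r = -0.76 (adjusted p = 0.00217) and rho = -0.75 (0.00255), r = -0.60 without the 2 farthest rats and r between -0.92 and -0.74 within groups. Ngfr also ran opposite to Ntf3, with r = -0.66 (adjusted p = 0.0106), rho = -0.77 (0.00202), r = -0.89 without the 2 farthest rats and r between -0.94 and -0.62 within groups. Bdnf and Ntrk3 gave r = 0.79 (adjusted p = 0.0023), but rho = 0.51 (0.0754), r = 0.40 without the 2 rats farthest from the median of Bdnf, so the rank test did not pass and the value fell with those rats. Within groups this pair had r = 0.15 in control, 0.73 in ethanol and 0.89 in withdrawal, and without withdrawal rats 1 and 5 it had r = 0.63. Bdnf and its receptor gene Ntrk2 gave r = 0.65 (adjusted p = 0.0135), rho = 0.43 (0.138) and r = 0.47 without the 2 farthest rats, with r = -0.67 within control, 0.04 within ethanol and 0.83 within withdrawal. Bdnf and Ngfr passed by rank alone, with rho = -0.70 (adjusted p = 0.00667) and r = -0.50 (0.0760), r = -0.59 without the 2 farthest rats and r of -0.41, -0.91 and -0.47 within control, ethanol and withdrawal. The genes of one rat share its dissection, library and depth.

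Levels of cell type markers moved with several of these genes across rats, and their part in the results was not tested (mean log2 deviation of each marker list, 90 member and marker pairs adjusted together). Sort1 followed the 8 glutamatergic neuron markers, with r = 0.88 (adjusted p = 9e-04), rho = 0.91 (9e-04) and r = 0.82 without the 2 farthest rats, and within groups r ran from 0.84 to 0.92. Ntf3 also followed them, with r = 0.75 (adjusted p = 0.0162) and rho = 0.84, and Ngfr ran against them, with r = -0.77 (adjusted p = 0.0027) and rho = -0.77. None of these 8 markers was DE in any of the 3 comparisons by limma-voom, edgeR or DESeq2. In withdrawal vs. control, ethanol vs. control and withdrawal vs. ethanol, 1, 0 and 1 had an unadjusted p under 0.05, against 19.7%, 12.5% and 16.7% of all genes. Sort1 and Ntf3 ran against the 10 endothelium and pericyte markers, with r = -0.70 (adjusted p = 0.0144) and rho = -0.74 for Sort1 and r = -0.69 (adjusted p = 0.0147) and rho = -0.61 for Ntf3. Of these 10 markers 5 were increased in withdrawal vs. control, against 2.85% of all genes tested. Ntrk2 followed the 10 astrocyte markers, with r = 0.79 (adjusted p = 0.0027), rho = 0.76 and r of 0.84, 0.54 and 0.96 within control, ethanol and withdrawal. The summed CPM of the astrocyte markers ran from 4021 to 4467 in control, from 3656 to 4339 in ethanol and from 3581 to 5188 in withdrawal. Of the 10, 4 were DE in withdrawal vs. control, against 5.41% of all genes tested, with Gfap and Sox9 increased and Aldh1l1 and Gja1 decreased. Ntrk3 ran against the oligodendrocyte precursor markers, with r = -0.77 (adjusted p = 0.0045) and rho = -0.82, and the myelin markers, with r = -0.72 (adjusted p = 0.00405) and rho = -0.79. Against the 10 thalamus markers, Sort1 gave rho = -0.74 (adjusted p = 0.00765) and Ntf3 rho = -0.63 (0.0360). By Pearson's r neither passed, at -0.61 (adjusted p = 0.0659) and -0.58 (0.0843). The thalamus sums ran from 378 to 1039 CPM in control, 315 to 1879 in ethanol and 299 to 761 in withdrawal. Ethanol rat 1 had the highest thalamus score, at 1.73.

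For Bdnf, the marker list with the closest relation was that of myelin, with r = -0.64 (adjusted p = 0.0321), rho = -0.66 and r = -0.64 without the 2 farthest rats. The summed CPM of these 10 markers ran from 13659 to 18757 in control, from 13517 to 19759 in ethanol and from 13818 to 16272 in withdrawal. In withdrawal vs. control 0 of the 10 were DE by limma-voom, 0 by edgeR and 1 by DESeq2, with 3 at an unadjusted p under 0.05, against 19.7% of all genes. For Ngfr, the 5 cholinergic markers tested had low and variable sums, from 2.09 to 39.4 CPM in control, 1.64 to 44.8 in ethanol and 2.21 to 17.2 in withdrawal, with r = 0.54 (adjusted p = 0.0843) and rho = 0.66 (0.0281). Chat, the acetylcholine-synthesizing enzyme that defines these neurons, fell as low as 0.227 CPM in a rat and reached 11.1 CPM in another.

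**Figure D4:**
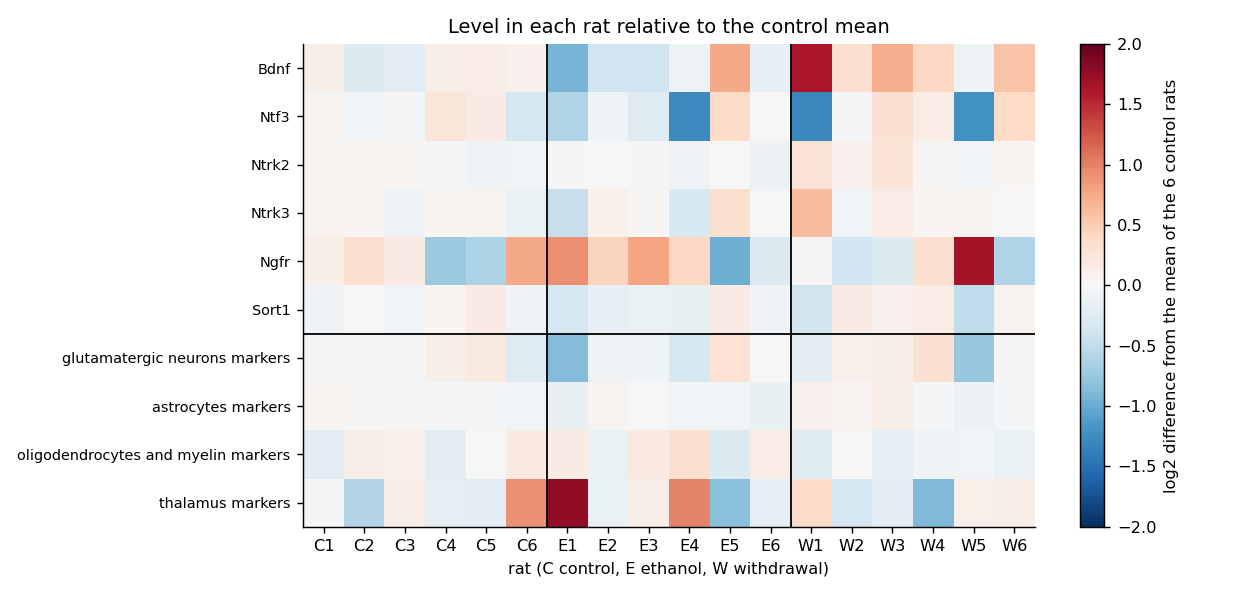
Heat map of the log2 difference of each rat (x axis) from the mean of the 6 control rats, for the 6 member genes and 4 marker lists (y axis), with red for higher, blue for lower and lines between groups. Sort1 is lowest in the rats where the glutamatergic neuron markers are low (ethanol rat 1 and withdrawal rat 5) and in withdrawal rat 1, where Bdnf is highest.

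By Pearson's r over the 18 rats among 13986 named genes of at least 1 CPM, the genes most like Bdnf were Uck2 (0.94), Pfkfb3 (0.94) and Ptgs2 (0.93), the last being the inducible cyclooxygenase gene. With group means removed, these values were 0.91, 0.90 and 0.94. The nearest to Ntf3 were C1ql3 (0.96), Svep1 (0.92) and Ryr1 (0.92), and the nearest to Sort1 were Arhgef2 (0.97), Chn1 (0.96) and Nr3c2 (0.96). Ntrk2 was most like Bcar3 (0.88), Frmpd1 (0.86) and Shank1 (0.86), Ntrk3 most like Lrfn2 (0.93), Cemip (0.93) and Iqsec3 (0.92), and Ngfr most like Ppp1r26 (0.92), Rgs6 (0.90) and Hhatl (0.90). These are descriptions of the closest among many genes in libraries that share depth and tissue makeup.

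The rest of the pathway was described by 7 lists with 173 different genes tested. In withdrawal vs. control 14 of the 173 were DE, against 5.41% of all genes tested as given above, in ethanol vs. control 2 against 0.493% and in withdrawal vs. ethanol 5 against 2.72%, and the median log2 fold change over all genes tested was 0.00 in each comparison. Without withdrawal rat 6 the number of all DE genes in withdrawal vs. control was 23 in place of 965, and all 14 pathway calls of that comparison were lost. Ntf4, another TrkB ligand gene, was near the detection limit, at 0.263 ± 0.067 CPM in control, 0.467 ± 0.235 in ethanol and 0.303 ± 0.198 in withdrawal. Nradd, which encodes a protein related to p75, was at 1.47 ± 0.24, 1.63 ± 0.26 and 1.88 ± 0.64 CPM. In withdrawal vs. control the log2 fold change was 0.31 ± 0.29 for Ntf4 (q = 0.588) and 0.26 ± 0.16 for Nradd (q = 0.377), and neither gene was DE in any comparison.

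Of the Vps10p receptors related to sortilin, 1 of 4 was DE in withdrawal vs. control, against 5.41% of all genes tested. Sorcs1 rose from 44.0 ± 4.85 to 55.9 ± 10.4 CPM (log2 fold change 0.24 ± 0.07, q = 0.0788), a call that was lost without any one of the control rats, ethanol rat 6, or withdrawal rats 1, 3 or 6 (q from 0.101 to 0.187). Among the proteases and release factors that turn precursors into mature neurotrophins, 2 of 17 were increased and 1 decreased, against 2.85% and 2.55% of all genes tested. Plat, tissue plasminogen activator, which makes the plasmin that cuts BDNF precursor outside the cell, rose from 44.1 ± 2.31 to 60.5 ± 10.4 CPM (0.47 ± 0.10, q = 0.0267). Every withdrawal rat, from 49.3 CPM upwards, lay above every control rat, the highest of which was at 46.3 CPM. Such a lack of overlap, counted in both directions together, was seen in 1.06% of all genes tested. Endothelial cells also carry Plat. Of 10 endothelium and pericyte markers, 5 were increased and none decreased in this comparison, against 2.85% and 2.55% of all genes tested. Their summed CPM ran from 391 to 472 in control, 411 to 513 in ethanol and 423 to 554 in withdrawal. All 3 blood markers tested were decreased. The part of these markers in the difference in Plat was not tested. Furin, the convertase that cuts precursors inside the cell, rose from 42.3 ± 1.97 to 54.3 ± 14.5 CPM (0.37 ± 0.10, q = 0.0616), and Pcsk6, a related convertase, fell from 32.5 ± 1.80 to 26.98 ± 3.95 CPM (-0.27 ± 0.06, q = 0.0384). The calls of Plat and Pcsk6 were lost without withdrawal rat 6 (q = 0.153 and 0.189), that of Furin without control rats 3 or 6 or withdrawal rat 6 (q from 0.120 to 0.161), and all 3 protease calls were lost without surrogate variables. Without withdrawal rat 1 the log2 fold change of Furin was 0.23 (q = 0.0312), and among the 17 other alternatives it ran from 0.17 to 0.39.

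Downstream of the Trk receptors, 2 of 60 adaptor and kinase genes were DE in withdrawal vs. control, of which 1 was increased, a share below the 5.41% of all genes tested. Akt2, a kinase of the survival branch, rose from 70.1 ± 1.71 to 78.7 ± 9.48 CPM (0.19 ± 0.04, q = 0.0322). Of 38 genes of the p75 pathway, 2 were increased, against 2.85% of all genes tested, namely Mapkapk2 (0.33 ± 0.09, q = 0.0728) and Nfkb1, the NF-kB subunit gene (0.17 ± 0.05, q = 0.0736). The median was 0.01 in the Trk list, with 34 of 60 genes above 0 and 9 at an unadjusted p under 0.05, also a lower share than the 19.7% of all genes. In the p75 list it was 0.05, with 30 of 38 genes above 0, against 50.1% of all genes, and 11 at an unadjusted p under 0.05, against the same 19.7%. The call of Akt2 was lost without withdrawal rat 6 (q = 0.169), that of Mapkapk2 without any one of the control rats or withdrawal rat 6 (q from 0.113 to 0.170, with a log2 fold change of 0.20 and q = 0.0354 without withdrawal rat 1), and that of Nfkb1 without control rats 2, 3, 4 or 6 or withdrawal rats 1, 3 or 6 (q from 0.110 to 0.197). In withdrawal vs. ethanol, Shc2 (-0.18 ± 0.04, q = 0.0472) and Mapk3, encoding ERK1 (-0.17 ± 0.05, q = 0.0787), fell among the Trk adaptors and kinases. In the p75 list Rhoa (0.17 ± 0.04, q = 0.0541) and its kinase Rock2 (0.23 ± 0.06, q = 0.0662) rose in that comparison, and the Nogo receptor gene Rtn4r, a partner of p75, fell (-0.26 ± 0.07, q = 0.0916). These 5 calls were all lost without ethanol rats 2 or 3 or withdrawal rat 6 (q from 0.172 to 0.377, with Rock2 at 0.15 without ethanol rat 2), that of Mapk3 also without control rats 1, 2 or 3 or ethanol rat 6 (q from 0.102 to 0.123), and that of Rtn4r also without any one of the control rats or withdrawal rats 1 or 3 (q from 0.101 to 0.118).

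Of 26 genes known to follow neuronal activity or BDNF, 3 were increased in withdrawal vs. control, against 2.85% of all genes tested, 24 had a positive log2 fold change, against 50.1% of all genes, and the median was 0.39. These genes were measured in the same rats and are not independent observations. The list sums overlapped, at 1208 to 1409 CPM in control (median 1264) and 1256 to 2836 in withdrawal (median 1493). In ethanol vs. control 20 were positive (median 0.16, or 0.03 without surrogate variables), and in withdrawal vs. ethanol 17 (median 0.14). Gadd45g rose from 6.57 ± 0.71 to 10.9 ± 3.48 CPM (0.70 ± 0.16, q = 0.0392), and all 6 ethanol rats, at 9.49 ± 1.76 CPM, also lay above every control rat. Such a lack of overlap, counted in both directions together, was seen in 1.32% of all genes, and ethanol vs. control did not pass (0.45, q = 0.312). Spry2, an inhibitor of growth factor signaling, rose from 48.5 ± 2.60 to 67.5 ± 18.8 CPM (0.45 ± 0.11, q = 0.0491). Vgf, a secreted peptide precursor induced by BDNF, rose from 28.0 ± 5.96 to 47.4 ± 17.2 CPM (0.71 ± 0.21, q = 0.0784). Arc, an immediate early gene, was at 76.0 ± 14.0 CPM in control, 84.9 ± 46.5 in ethanol and 145 ± 133 in withdrawal, where the highest rat reached 409 CPM and the comparison with control did not pass (0.62, q = 0.281). The call of Gadd45g was lost without withdrawal rat 6 (q = 0.183), that of Spry2 without control rat 3 or withdrawal rats 1 or 6 (q from 0.111 to 0.127), and that of Vgf without any one of the control rats or withdrawal rats 1, 3 or 6 (q from 0.105 to 0.207). Among the 17 other alternatives, Gadd45g lost its call in 5, Spry2 in 8 and Vgf in 8, and all 3 lost it without surrogate variables (q = 0.139, 0.292 and 0.219). The log2 fold change of Vgf ran from 0.41 to 0.77 in these alternatives. In ethanol vs. control 0 of the 26 were DE by limma-voom, with 8 at an unadjusted p under 0.05, against 12.5% of all genes, and with 0 by edgeR and 2 by DESeq2.

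Among 28 regulators of Bdnf transcription, 3 were increased and 1 decreased in withdrawal vs. control, against 2.85% and 2.55% of all genes tested. Usf2, an E-box factor, rose from 67.4 ± 2.99 to 74.1 ± 3.24 CPM (0.14 ± 0.04, q = 0.0594), and it was also increased in ethanol vs. control, at 74.6 ± 2.48 CPM (0.17 ± 0.04, q = 0.0944). Hdac5, a class IIa histone deacetylase, rose from 103 ± 10.2 to 128 ± 26.2 CPM (0.27 ± 0.08, q = 0.0788), Nfkb1 was named above, and Crtc1, a coactivator of CREB, fell from 225 ± 16.1 to 198 ± 23.9 CPM (-0.17 ± 0.04, q = 0.0639). The only other pathway gene DE in ethanol vs. control was Akt1, at 119 ± 2.57 CPM in control and 132 ± 4.86 in ethanol (0.16 ± 0.04, q = 0.0925). In withdrawal vs. control the calls were lost without control rats 3, 5 or 6 or withdrawal rats 1 or 6 for Usf2 (q from 0.104 to 0.228), without control rats 1, 3, 4 or 6, ethanol rat 6 or withdrawal rats 1, 3 or 6 for Hdac5 (0.102 to 0.197, with a log2 fold change of 0.17 without withdrawal rat 1), and without any one of the control rats or withdrawal rats 1, 3 or 6 for Crtc1 (0.103 to 0.257). In ethanol vs. control both calls were lost without 13 of the 18 rats, with q up to 0.267 for Usf2 and 0.258 for Akt1, each highest without control rat 6.

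**Figure D5:**
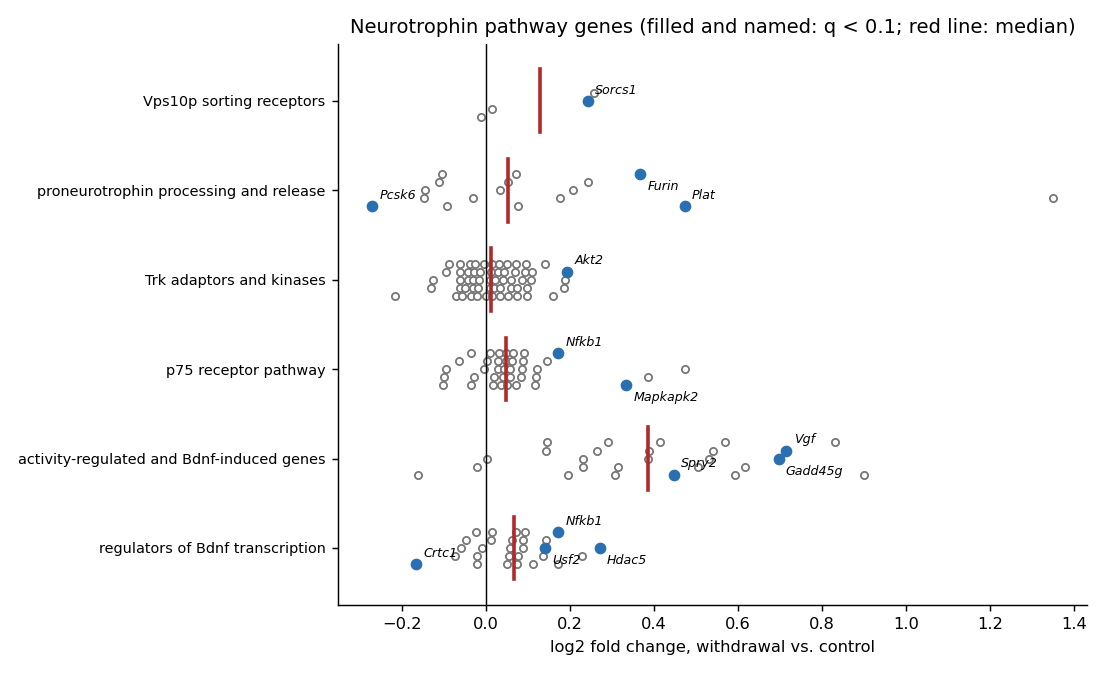
Log2 fold change in withdrawal vs. control (x axis) of the genes of 6 pathway lists (y axis), with points for genes, filled and named for q < 0.1, and a red line for the median of all genes tested in each list. Genes not reported here are not drawn. The median of the activity-regulated list is 0.39, against 0.00 over all genes tested, and that of the Trk adaptors and kinases is 0.01.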

How the data were processed

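RNA-seq libraries of the dorsal hippocampus were made from 18 rats, grouped by the treatment named in the sample labels. The authors deposited raw counts per gene, made by aligning reads with STAR 2.5.2a to Rnor_6.0 (NCBI annotation 106) and assigning read pairs to exons by strand with featureCounts 1.5.0, without pairs that mapped to several places. Rows carry gene IDs, and 29322 of 38445 were named from the RefSeq table of assembly GRCr8, which was otherwise used only for promoter windows. Gene coordinates are those of the deposited files.

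Counts were normalized by TMM (edgeR 4.0.16), the 17853 genes above 0.5 CPM in 1 rat or more were retained, sva 3.50.0 gave 3 surrogate variables from log2 CPM values (prior count 2), and one limma 3.58.1 voom model of the 3 groups gave all contrasts, with Benjamini-Hochberg adjustment over all genes and q < 0.1, in R 4.3.3. The number of surrogate variables was chosen here, as it is not given in the sources used here. Of the numbers tried in limma-voom (0, 1, 2, 3 and 5), only 3 gave the call of Bdnf in withdrawal vs. control. Single values were compared by two-sided exact permutation tests (scipy 1.17.1, pandas 2.3.3, numpy 2.4.6, Python 3.11.15), figures were drawn with matplotlib 3.10.9, and DESeq2 1.42.0 was an alternative. Replicates came from different rats, and the 45 pairs of rats within groups all differed beyond sampling noise (chi-square per degree of freedom at least 5.74). On simulated counts for 17853 genes, withdrawal vs. control recovered 172 of 200 genes changed 2-fold with 22 false calls, 13 of 200 changed 1.25-fold with 0, and made 0 calls where none changed. These counts were drawn independently for each gene and rat, with no variation shared between the genes of a rat. They therefore do not show how often false calls arise in the real libraries.

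The member genes, pathway lists and marker lists were chosen with earlier results of these data known. Named are all 6 members, the genes called in each pathway list and comparison (at most 5) or the 2 with the smallest p where none was called (those described in the text), and for every member the 3 genes of highest Pearson's r. Some genes of these lists, though counted, are not reported here. Arc, Slc17a7, Prox1 and Chat were added after their values were seen. Alternatives tried were edgeR and DESeq2, 0, 1, 2 or 5 surrogate variables, other scalings, filters and thresholds, sample quality weights, 2-group models, a replicate block, 1 index set and leaving out each rat.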

Additional observations from a re-analysis of the deposited data

Results flagged for a closer look

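Of the 18 groups of 6 rats (6 member genes in 3 groups), 4 held 1 rat far from the other 5 in CPM, by a gap to the nearest rat that passed Dixon's 95% critical value as a share of the group's range. For normally spread values, chance flags about 1 in 20 groups. In CPM the highest values lie farther from the rest than on the log2 scale of the tests above. The flags therefore hold for CPM alone, and their number is not a result against chance. Bdnf of ethanol rat 5 was at 53.9 CPM against 16.7 to 29.8 CPM in the other ethanol rats, and Bdnf of withdrawal rat 1 was at 99.7 CPM against 29.7 to 53.0 CPM. The same withdrawal rat had Ntrk3 at 182 CPM against 113 to 131 CPM in the rest of its group. Ngfr of withdrawal rat 5 was at 3.47 CPM against 0.678 to 1.34 CPM.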

How the results depend on the processing

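Many counts of calls moved with the model. In withdrawal vs. control the 1 called member gene (Bdnf) became 0 with 0, 1, 2 or 5 surrogate variables, with edgeR or DESeq2 without them, with no filter on low counts, with a filter of 0.5 CPM in 6 rats, with the 2 groups alone and at q < 0.05, and 2 (Bdnf and Ntrk2) with DESeq2 and surrogate variables or with quality weights. It was also 0 in 3 alternatives chosen after seeing the data, namely withdrawal rats 1 and 5 both left out, and no surrogate variables without either withdrawal rat 1 or rat 5. In withdrawal vs. ethanol the 0 became 1 with 1 surrogate variable, DESeq2 with them, quality weights or no surrogate variables without withdrawal rat 5, and 2 with DESeq2 without them. Leaving out 1 rat gave 0 to 2, 0 to 0 and 0 to 1 member calls in withdrawal vs. control, ethanol vs. control and withdrawal vs. ethanol, and 0 to 1 permuted differences of members in each comparison against 0 with all rats, namely Bdnf in withdrawal vs. control and Ntrk2 in withdrawal vs. ethanol without withdrawal rat 5 (adjusted p = 0.0195 each), and Sort1 in ethanol vs. control without ethanol rat 5 (0.0390), each after leaving out the 1 rat by which the groups overlapped. Ratios of members gave 0 throughout.

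Over all genes, the 965 calls of withdrawal vs. control became 41, 112, 594 and 262 with 0, 1, 2 and 5 surrogate variables, 33 with edgeR without them, 1624 and 435 with DESeq2 with and without them, 486 with no filter, 0 with the 2 groups alone, 370 at q < 0.05, 317 without withdrawal rats 1 and 5, and, without surrogate variables, 0 without rat 1 and 59 without rat 5. The 88 of ethanol vs. control became 50, 258 and 322 with 0, 1 and 5 surrogate variables, 473 and 431 with DESeq2 with and without them, 9 with no filter, 440 with quality weights, 55 with the 2 groups alone, 10 at q < 0.05 and 404 without withdrawal rats 1 and 5. The 486 of withdrawal vs. ethanol became 1492, 260 and 871 with 1, 2 and 5 surrogate variables, 1176 and 1443 with DESeq2 with and without them, 166 with no filter, 1073 with quality weights, 0 with the 2 groups alone, 112 at q < 0.05, 0 in 1 index set, and 164 without surrogate variables and withdrawal rat 1. Leaving out 1 rat gave 23 to 1911, 0 to 258 and 0 to 1800 calls, and the lowest for withdrawal vs. control came without withdrawal rat 6.

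In the pathway lists, the 14 calls of withdrawal vs. control became 0, 0, 7 and 6 with 0, 1, 2 and 5 surrogate variables, 0 with edgeR and 5 with DESeq2 without them, 8 with no filter, 0 with the 2 groups alone, 6 at q < 0.05, 5 without withdrawal rats 1 and 5, and 0 without surrogate variables and either of these rats. The 2 of ethanol vs. control became 0, 1 and 5 with 0, 2 and 5 surrogate variables, 0 with edgeR without them, 9 and 5 with DESeq2 with and without them, 1 with DESeq2's size factors, 0 with total counts, 0 with no filter, 8 with quality weights, 0 with the 2 groups alone, 0 at q < 0.05, 8 without withdrawal rats 1 and 5, and, without surrogate variables, 0 without rat 1 and 1 without rat 5. The 5 of withdrawal vs. ethanol became 17, 2 and 18 with 1, 2 and 5 surrogate variables, 8 with edgeR without them, 17 and 19 with DESeq2 with and without them, 2 with no filter, 14 with quality weights, 0 with the 2 groups alone, 1 at q < 0.05, 0 in 1 index set, 10 without withdrawal rats 1 and 5, and, without surrogate variables, 3 without rat 1 and 9 without rat 5. Leaving out 1 rat gave 0 to 22, 0 to 5 and 0 to 24.

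Replicate numbers did not pair the rats: 4 of 18 same-numbered pairs had a correlation of deviations over 0.1 (range -0.41 to 0.51), and 4 rats correlated best with their own number. With the number as a block and no surrogate variables, 0 member genes, 0 pathway genes and 0 of all genes were called in withdrawal vs. control (Bdnf 0.59, q = 0.499), 0 pathway genes and 0 of all genes in ethanol vs. control, and 0 pathway genes and 14 of all genes in withdrawal vs. ethanol. With the block and 3 surrogate variables Bdnf had q = 0.0341 in withdrawal vs. control, 0 pathway and 26 of all genes were called in ethanol vs. control, and 0 pathway genes and 1 of all genes in withdrawal vs. ethanol.

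Directions turned only for values that were not called. In log2 units, Bdnf in ethanol vs. control was -0.20, -0.19, -0.098 and -0.14 with 0, 1, 2 and 5 surrogate variables, -0.12 with edgeR and -0.12 with DESeq2 without them, -0.0046 with the 6-rat filter, -0.093 with quality weights, -0.20 with the 2 groups alone and with the block alone, -0.041 without withdrawal rats 1 and 5, -0.20 and -0.19 without surrogate variables and rat 1 or rat 5, and -0.26 to 0.24 with 1 rat left out. Ngfr in withdrawal vs. control was 0.091 and 0.10 with 0 and 5 surrogate variables, 0.27 with edgeR and DESeq2 without them, 0.087 with the 2 groups alone, 0.077 with the block alone, 0.061 without withdrawal rats 1 and 5 and 0.10 without surrogate variables and rat 1, and in withdrawal vs. ethanol 0.0062 with edgeR and 0.0088 with DESeq2 without surrogate variables. Ntrk3 in ethanol vs. control was -0.055 with 0 or 1 surrogate variables, -0.034 with edgeR and -0.035 with DESeq2 without them, -0.057 with the 2 groups alone, -0.055 with the block alone and -0.055 and -0.051 without surrogate variables and rat 1 or rat 5. In withdrawal vs. control it was -0.036 with 5 surrogate variables and -0.0072 without withdrawal rats 1 and 5, and in withdrawal vs. ethanol -0.084 with 5 surrogate variables, -0.0095 with total counts, -0.0046 with the 6-rat filter, -0.024 with quality weights, -0.029 with the block, -0.10 without withdrawal rats 1 and 5, and -0.070 to 0.086 with 1 rat left out. Sort1 in withdrawal vs. control was 0.012 and 0.048 with 1 and 5 surrogate variables, 0.0063 with quality weights, 0.051 without withdrawal rats 1 and 5, 0.018 without surrogate variables and rat 5, and -0.052 to 0.012 with 1 rat left out. Ntf3 in withdrawal vs. control was 0.0089 with quality weights, 0.083 without withdrawal rats 1 and 5, and -0.21 to 0.037 with 1 rat left out, and in withdrawal vs. ethanol -0.010 with the block, -0.26 in 1 index set and -0.10 to 0.21 with 1 rat left out. Ntrk2 in ethanol vs. control ran from -0.025 to 0.0038 with 1 rat left out, and Nradd in withdrawal vs. ethanol was -0.0019 without surrogate variables and rat 5. The cause of these shifts was not tested. Among the members Ngfr had the lowest counts, at 18 to 129 per rat, and 6 rats per group limit the precision of all values.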
